A study of Mus musculus with 12 samples.

Results

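The Ly49 receptor family was followed in B16F10 mouse melanomas through 10 genes of an immune panel, Klra1, Klra2, Klra3, Klra4, Klra5, Klra6, Klra7, Klra15, Klra17 and Klra21. These members were taken by probe name from the 750 genes of an nCounter PanCancer immune panel for mouse (NanoString), on which each gene's RNA molecules are captured by their own barcoded probe and counted without amplification. The panel carried 12 Klra probes in all, and the other two, Klra20 and Klra27, passed the background limit in 2 and 0 of 12 tumors.

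B16F10 is a pigmented melanoma line of C57BL/6 origin, here grown in the flank of C57BL/6 mice from Taconic and injected at day 6 after inoculation. All mice carried the same tumor, and each of the 4 groups held 3 tumors from separate mice. The saline group received saline into the tumor, which was collected 2 days later. The early single-dose group received interleukin-2 and interleukin-12, both as collagen-binding fusion proteins, and was collected 2 days later, and the late single-dose group received the same dose and was collected 8 days later. The repeat-dose group received a second dose 6 days after the first and was collected 2 days after it, which is 8 days after the first. No saline tumor of the later age was measured, so tumor age and treatment cannot be told apart when the late and repeat groups are set against saline. Late and early tumors likewise differ both in tumor age and in time since the dose, which cannot be told apart. RNA came from formalin-fixed, paraffin-embedded whole tumor tissue, so fewer cells of a type and less RNA per cell cannot be told apart. S100b, a gene of neural crest derivatives including melanocytes, was above background in 12 of 12 tumors, as was Ptprc, which encodes the leukocyte antigen CD45.

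Ly49 proteins are lectin-like receptors on the cell surface that read classical MHC class I molecules, and are best known from mouse natural killer (NK) cells. Most carry an inhibitory motif in the cytoplasmic tail that recruits phosphatases when class I is bound, so that a target cell with normal class I restrains the NK cell. Others lack that motif and pair with the adaptor DAP12 to activate the cell. The genes lie side by side and are nearly identical in places, each NK cell expresses a random subset of them, and the gene content of the locus differs between inbred strains. Klra2 and Klra17 stand out because their products, Ly49B and Ly49Q, are known from myeloid cells and from plasmacytoid dendritic cells, respectively.

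RefSeq annotation matched 8 of the 10 members, all on chromosome 6, by the transcript each probe targets; Klra15 and Klra21 had no match. Klra17, Klra5, Klra6, Klra4, Klra7, Klra3 and Klra1 followed each other in that order within an unbroken run of 10 protein-coding Klra genes. Klra2 stood apart, with 5 protein-coding genes between it and Klra1, none of them a Klra gene. The stretch of sequence near the gene start was nevertheless shared. The windows below are 65 bases each from RefSeq promoters of build GRCm38.p6, on the minus strand, printed because they show which members keep the upstream block that Klra2 carries outside the run. Capitals mark TTTCCTC and AGGAGG, strings picked by reading the members' own promoters.
Klra2, chr6:131247373-131247437: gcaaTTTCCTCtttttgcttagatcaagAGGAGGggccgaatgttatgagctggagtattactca
Klra7, chr6:130233351-130233415: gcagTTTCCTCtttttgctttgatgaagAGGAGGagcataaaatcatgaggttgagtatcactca
Klra3, chr6:130337585-130337649: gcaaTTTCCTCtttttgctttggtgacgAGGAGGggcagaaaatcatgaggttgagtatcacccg
Klra6, chr6:130027013-130027077: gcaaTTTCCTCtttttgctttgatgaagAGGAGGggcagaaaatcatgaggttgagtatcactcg
Klra4, chr6:130067290-130067354: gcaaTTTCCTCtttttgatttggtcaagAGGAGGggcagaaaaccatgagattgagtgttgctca
Klra5, chr6:129913254-129913318: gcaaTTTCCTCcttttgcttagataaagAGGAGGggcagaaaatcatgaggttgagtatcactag
Klra17, chr6:129876686-129876750: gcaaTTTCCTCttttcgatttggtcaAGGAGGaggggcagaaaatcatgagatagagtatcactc

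The Klra2 window was identical to the others at 80% (Klra3) to 84.6% (Klra6) of its 65 positions. The block began 71 bases before the annotated start of Klra2 and between 19 (Klra3) and 119 (Klra6) bases before that of the others. Of the 8 members with a promoter entry, 7 held the pair; Klra1 did not, and Klra7 held it in 1 of its 2 annotated promoters. Searched on both strands of all 32851 promoter entries, each running from 250 bases before to 50 after a gene start, TTTCCTC occurred in 9% and AGGAGG in 35.3%. Both in this order with 10 to 30 bases between them occurred in 48 entries (0.146%), 10 of which were among the 13 entries of Klra genes. Because the strings were picked from members' promoters, their frequency among Klra genes is a description and no test. A match describes the letters of the window and no factor's binding. Because the members resemble each other, a probe for one may also capture RNA of another; probe sequences were not used here and cross-hybridization was not tested.

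Counts were scaled by the geometric mean of 20 housekeeping probes, and all levels below are such scaled counts unless called raw. Panel totals ran from 392596 counts in the repeat-dose tumor C to 1232726 in the early tumor B. The housekeeping mean itself differed between groups, averaging 2680 raw counts in saline, 1716 early, 1467 late and 918.6 after repeat dosing. Dividing by it lifted everything in the treated tumors, including the 8 negative probes that match no transcript. These averaged 7.08 in saline, 11.5 early, 16.8 late and 27.2 after repeat dosing on the scaled axis, a rise over saline of 0.69, 1.24 and 1.90 in log2, although their raw means stayed between 12.25 and 15.6. The median of the 729 genes tested rose likewise, by 0.56, 0.78 and 1.19. A change in a member is therefore given beside these shifts, and a count of one probe is not set against that of another as a level.

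A member was called above background in a tumor when its raw count passed the mean plus 2 SD of that tumor's negative probes, a limit of 16.6 to 29.2 raw counts. Klra2, Klra7 and Klra4 passed in 12 of 12 tumors, Klra3 and Klra6 in 11, Klra1 in 10, Klra5 in 8, Klra17 in 5, Klra21 in 1 and Klra15 in none. Klra15, with 4 to 13 raw counts, and Klra21, with 7 to 19, were not tested, since a gene had to pass in at least 3 tumors. Klra15 and Klra21 encode Ly49O and Ly49U, receptors described in 129-strain mice, whereas the tumors grew in C57BL/6. Klra17 met the requirement through the late group, where it passed in 3 of 3 tumors, against 1, 0 and 1 in saline, early and repeat.

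**Figure D1:**
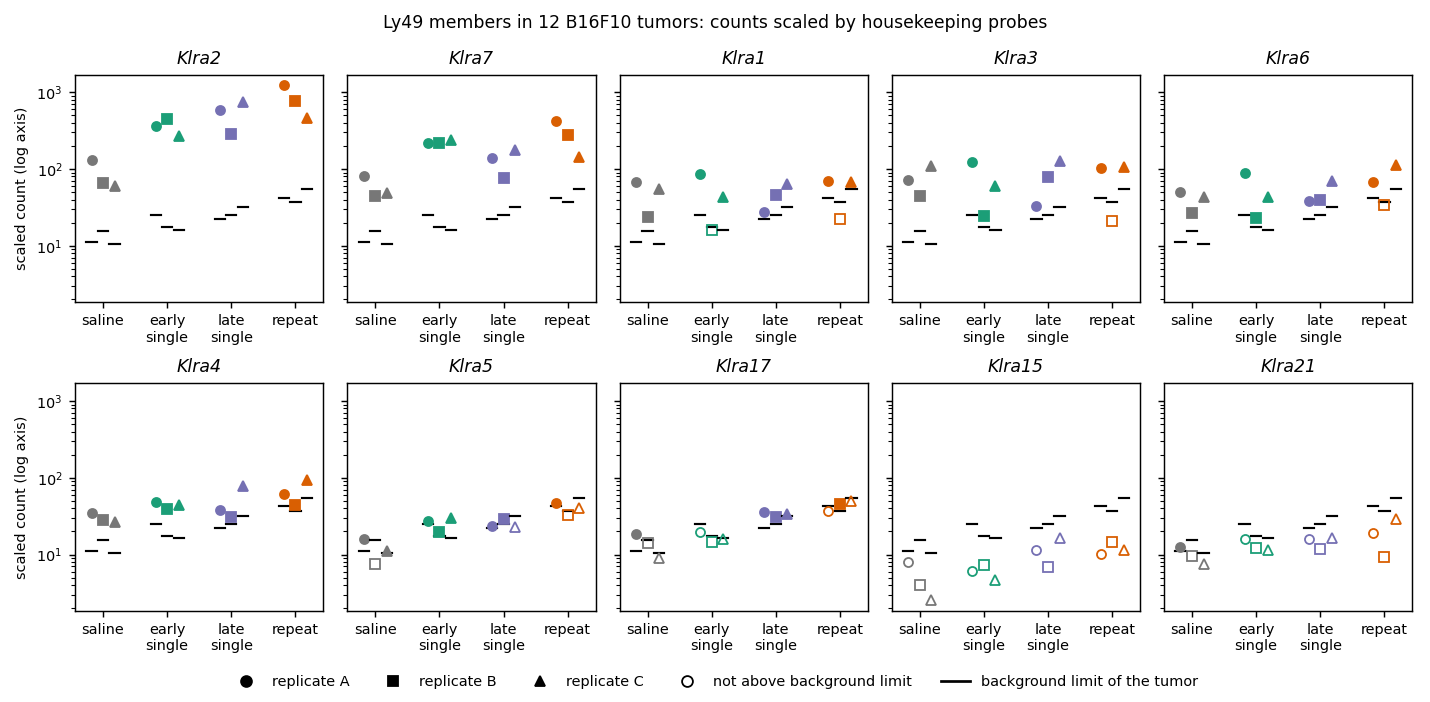
Scaled counts of the 10 members in each tumor (log axis), with replicate A, B and C as circle, square and triangle. Short black lines give the background limit of each tumor on the same scale, and open symbols did not pass it. Klra2 and Klra7 lie above the limit everywhere, while Klra5, Klra17, Klra15 and Klra21 lie near or under the limit, which rises from saline to repeat dose.

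Klra2 rose in every treated group. It encodes Ly49B, an inhibitory member known from myeloid cells. In saline tumors A, B and C its scaled count was 129.6, 65.2 and 61.0, and in early tumors it was 362.5, 455.0 and 271.1. In late tumors it was 584.6, 282.4 and 755.2, and in repeat-dose tumors 1248.0, 760.3 and 462.7. All 9 treated tumors lay above all 3 saline tumors. The late group overlapped both other treated groups, whereas the lowest repeat-dose tumor, at 462.7, lay just above the highest early one, at 455.0, a difference that was not tested.

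In edgeR's quasi-likelihood test with Benjamini-Hochberg adjustment over 729 genes, Klra2 rose over saline by 2.09 ± 0.48 in log2 (SE; adjusted p = 0.00969) in the early group. It rose by 2.67 ± 0.49 (adjusted p = 0.00690) in the late group and by 3.28 ± 0.50 (adjusted p = 0.000770) after repeat dosing, by edgeR. Relative to the median gene the rises were 1.53, 1.89 and 2.09. Each also exceeded the shift of the negative probes. Scaling by the panel total in place of housekeeping probes gave smaller rises of 1.13, 1.63 and 1.63, all past the threshold (edgeR adjusted p = 0.00785, 0.00263 and 0.000506). The early call was lost without saline tumor B (edgeR adjusted p = 0.0544), and the late call with positive-control scaling (0.0535) or a fit of those groups alone (edgeR adjusted p = 0.0576). Between treated groups Klra2 did not pass: late against early gave 0.57 (95% interval -0.32 to 1.47, edgeR adjusted p = 0.853) and repeat against late gave 0.61 (-0.28 to 1.51, edgeR adjusted p = 0.502). Without repeat-dose tumor C, which had the fewest counts, the rise over saline was 3.56 (edgeR adjusted p = 0.00160).

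Klra7 encodes the inhibitory receptor Ly49G and was, like Klra2, above background in all 12 tumors. Its scaled count was 80.2, 44.0 and 49.3 in saline tumors A, B and C, and 216.5, 221.4 and 241.9 in early tumors. It was 139.3, 76.8 and 174.9 in late tumors and 425.7, 277.2 and 145.5 in repeat-dose tumors. The early and repeat groups lay above all saline tumors, whereas late tumor B fell within the saline range and all late tumors lay below all early ones.

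The early rise of Klra7 was 1.97 ± 0.42 in log2 (SE; edgeR adjusted p = 0.00761), or 1.41 above the median gene, and was lost with positive-control scaling (edgeR adjusted p = 0.0677). The repeat-dose rise was 2.30 ± 0.43 (edgeR adjusted p = 0.00149), or 1.11 above the median gene. It was 0.63 with panel-total scaling, where the call was lost (edgeR adjusted p = 0.0618), and 0.98 with positive controls (edgeR adjusted p = 0.150). The late value of 1.17 ± 0.42 (edgeR adjusted p = 0.0465) was 0.39 above the median gene and below the 1.24 of the negative probes. It was 0.14 with panel-total scaling, 0.37 with TMM and 0.39 with positive controls, where the call was lost (edgeR adjusted p = 0.688, 0.336 and 0.645). The call was also lost in 8 of 12 fits that left out 1 tumor, by edgeR, among them those without saline B (adjusted p = 0.153), saline C (0.140), late A (0.103) and late C (0.181), and those without early A (0.0648), early B (0.0630), early C (0.0626) or repeat B (0.0620). Late against early, Klra7 differed by -0.80 (95% interval -1.61 to 0.01, edgeR adjusted p = 0.656). DESeq2 with its own size factors gave -0.97 for the same difference (adjusted p = 0.0402). Of 729 genes, 4.12% lay lower in all late than in all early tumors.

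Klra2 and Klra7 were then set against each other. Within each tumor, where scaling cancels, the log2 ratio of Klra2 to Klra7 was 0.69, 0.57 and 0.31 in saline tumors A, B and C and 0.74, 1.04 and 0.16 in early tumors. It was 2.07, 1.88 and 2.11 in late tumors and 1.55, 1.46 and 1.67 in repeat-dose tumors. Saline and early tumors overlapped, late tumors were the highest, and repeat-dose tumors lay between early and late without overlap. With negative counts subtracted the ranges were 0.34 to 0.74, 0.17 to 1.07, 2.11 to 2.26 and 1.52 to 1.98, in the same order of groups. An exact permutation test of 3 against 3 tumors cannot go below p = 0.10, so the ratio is given with no test.

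Against the geometric mean of the other 9 members, Klra2 stood at a log2 ratio of 1.85 ± 0.27 (SD, n = 3) in saline, 3.49 ± 0.70 early, 3.79 ± 0.53 late and 4.02 ± 0.89 after repeat dosing. Every treated tumor, at 3.00 or more, lay above every saline tumor, at 2.10 or less. Klra15 and Klra21, at or under background in nearly every tumor, enter that mean, and with the negative mean subtracted the ratios were 2.73, 4.58, 5.15 and 5.59. The ratio is therefore read only as higher in treated tumors, not as a size.

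**Figure D2:**
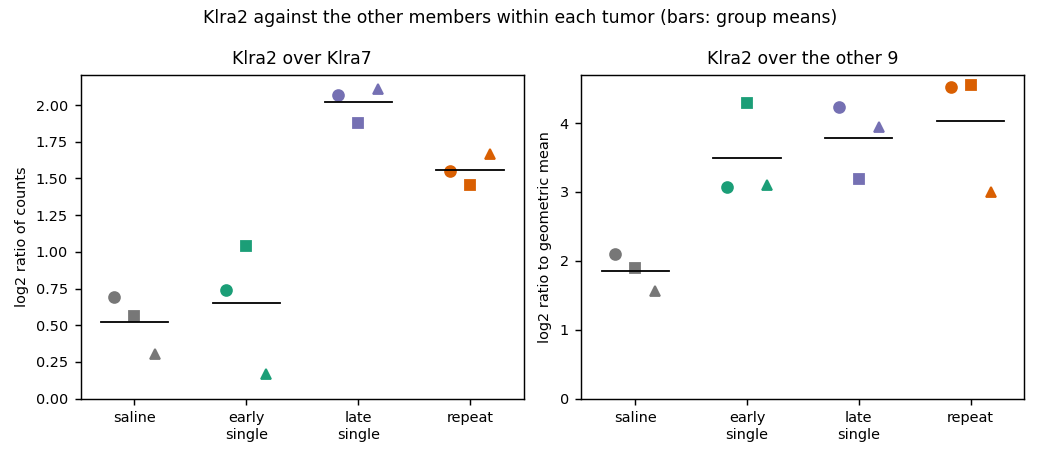
Klra2 against Klra7 (left, log2 ratio) and against the geometric mean of the other 9 members (right, log2 ratio) in each tumor; symbols as replicates A, B and C, bars as group means. The ratio to Klra7 is 0.16 to 1.04 in saline and early tumors and 1.46 to 2.11 in late and repeat-dose tumors.

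Klra1, Klra3 and Klra6 encode Ly49A, Ly49C and Ly49F, inhibitory members of the cluster. None passed the test in any comparison. Klra1 was 68.8, 24.0 and 55.4 in saline tumors A, B and C, 86.6, 16.2 and 43.1 early, 27.3, 45.9 and 64.6 late, and 69.98, 22.4 and 66.9 after repeat dosing. Klra3 was 72.1, 45.2 and 109.8 in saline, 125.0, 24.3 and 59.3 early, 33.0, 77.8 and 125.4 late, and 102.1, 21.1 and 104.8 after repeat dosing. Klra6 was 50.1, 26.9 and 43.7 in saline, 87.8, 22.7 and 43.1 early, 38.6, 39.9 and 69.7 late, and 68.5, 34.3 and 113.5 after repeat dosing.

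The groups of all 3 genes overlapped wherever they were set against each other, and the tumors within a group differed by more than the groups did. The highest tumor exceeded the lowest by 1.81-fold (Klra6, late) to 5.34-fold (Klra1, early). The lowest tumor of a group was the same one for all 3 genes, namely B in saline, early and repeat and A in late. Against saline, Klra1 gave -0.04 ± 0.64, -0.11 ± 0.64 and 0.09 ± 0.65 in log2 (SE) and Klra3 gave -0.14 ± 0.71, 0.05 ± 0.71 and -0.02 ± 0.72 in the early, late and repeat groups. Klra6 gave 0.33 ± 0.54, 0.29 ± 0.54 and 0.81 ± 0.55, and the smallest edgeR adjusted p of the 3 genes was 0.234. With an SE of this size the 95% intervals reach from -1.28 to 1.21 for Klra1 in the early group, so changes of 2-fold in either direction lie within the error. With positive-control scaling Klra1 and Klra3 fell by 1.48 and 1.68 in log2 after repeat dosing (edgeR adjusted p = 0.0275 and 0.0259).

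Klra4 encodes the activating receptor Ly49D, which signals through DAP12. It was 34.7, 28.0 and 26.4 in saline tumors A, B and C, 48.3, 38.9 and 44.7 early, 37.7, 30.9 and 78.6 late, and 61.2, 43.6 and 93.1 after repeat dosing. Early and repeat tumors lay above all saline tumors, and the late group overlapped saline. Only the repeat group passed the test, at 1.13 ± 0.40 in log2 (SE; edgeR adjusted p = 0.0291), which is 0.06 below the median gene and 0.78 below the shift of the negative probes. That direction depended on scaling: the value was -0.086 with TMM, -0.46 with the panel total and -0.46 with positive controls, none of them called by edgeR (adjusted p = 0.829, 0.314 and 0.353). Leaving out saline B, saline C, repeat A or repeat C also ended the call (edgeR adjusted p = 0.0811, 0.0875, 0.0588 and 0.123). Raw counts of Klra4 averaged 51 in saline and 35.7 after repeat dosing.

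Klra5 encodes Ly49E, an inhibitory member, and Klra17 encodes Ly49Q. Klra5 was 16.03, 7.4 and 11.2 in saline tumors A, B and C, 27.2, 19.5 and 30.0 early, 23.5, 28.9 and 22.8 late, and 46.7, 33.0 and 40.7 after repeat dosing. Klra17 was 18.7, 14.3 and 9.1 in saline, 19.8, 14.6 and 16.2 early, 35.8, 30.9 and 34.2 late, and 36.4, 44.9 and 49.5 after repeat dosing. The background limits averaged 12.3, 19.6, 26.3 and 44.8 on the same scale. The group means of Klra17 had the order of these limits, and those of Klra5 did not, since its early and late means, 25.6 and 25.1, lay side by side.

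Klra5 passed edgeR's test against saline in all 3 treated groups, with log2 changes of 1.14 ± 0.35, 1.12 ± 0.35 and 1.79 ± 0.35 (SE; adjusted p = 0.0309, 0.0273 and 0.00184). Klra17 had edgeR adjusted p-values of 0.0152 and 0.00191 in the late and repeat groups, at 1.26 ± 0.32 and 1.63 ± 0.32 (SE). Because Klra17 entered the test only through its values in the late group, these p-values give no support to a rise. Apart from early Klra5 and late Klra17, these changes were smaller than the 0.69, 1.24 and 1.90 of the negative probes, and those exceptions exceeded them by 0.46 and 0.02. With the negative mean subtracted none of the 5 calls remained (edgeR adjusted p from 0.141 to 0.683), nor with TMM or panel-total scaling. Without saline B or saline C, edgeR lost the call of Klra5 early (adjusted p = 0.114 and 0.106) and late (0.103 and 0.0928) and that of Klra17 late (0.0567 and 0.0635). Klra5 also lost its early call without early A or C (edgeR adjusted p = 0.0556 and 0.0830) and its late call without late A, B or C (0.0538, 0.0665 and 0.0654). Their raw counts stayed within 13 to 39 for Klra5 and 16 to 38 for Klra17. Late against early, Klra17 lay higher in every late tumor, by 1.00 ± 0.32 in log2, with an edgeR adjusted p of 0.276.

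**Figure D3:**
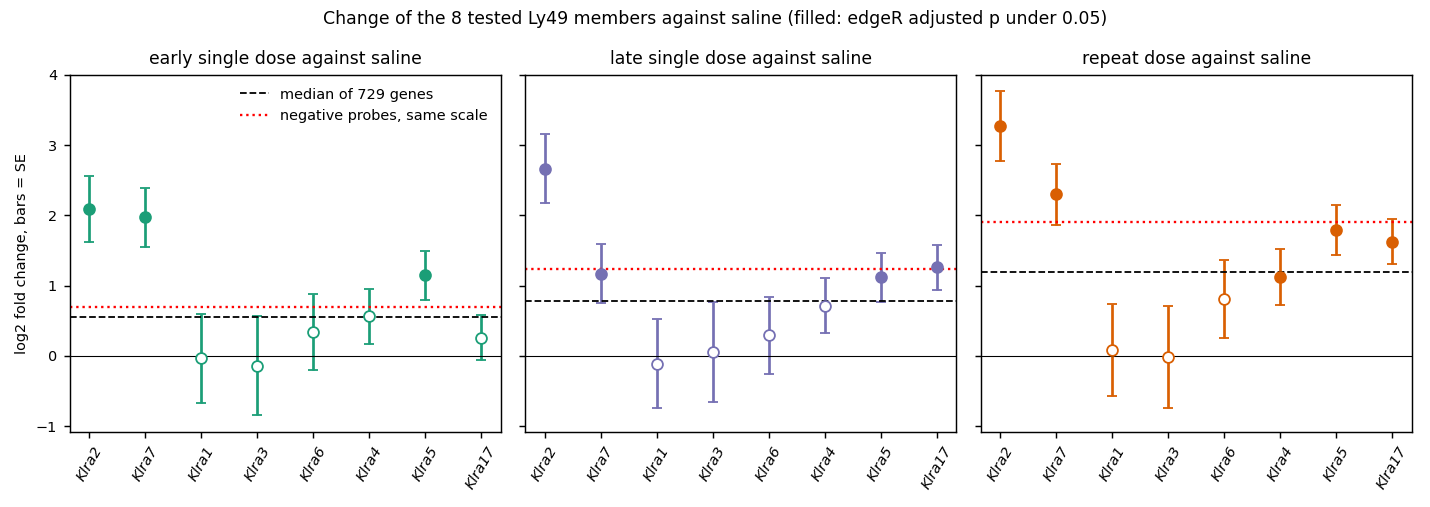
Log2 change of the 8 tested members against saline in each treated group, with bars of 1 SE; filled points had an edgeR adjusted p under 0.05. The dashed line is the median of 729 genes and the dotted line the shift of the negative probes on the same scale. Klra2 lies above both lines in all 3 panels, Klra7 does so in the early and repeat panels, and Klra4, Klra5 and Klra17 lie near or below the dotted line except early Klra5.

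Counted over the 8 tested members, 3 rose against saline in the early group, where 30.5% of all genes tested were called higher, namely Klra2, Klra7 and Klra5. In the late group 4 rose (Klra2, Klra7, Klra5 and Klra17), against 39.1% of all genes, and after repeat dosing 5 rose (these and Klra4), against 59.4%. Without Klra17, which the filter admitted through the late group, 3 of 7 members were called early, 3 of 7 late and 4 of 7 after repeat dosing. None fell, against 0.686%, 0.137% and 1.92% of all genes called lower. The members' median change was -0.11, 0.14 and 0.19 in log2 relative to the median gene in these comparisons, so the family as a list moved about as the panel did. With positive-control scaling the repeat split became 1 higher (Klra2) and 2 lower (Klra1 and Klra3), while over all genes it became 15.8% higher and 21.5% lower. With panel-total scaling it was 1 higher and 0 lower, against 21.8% and 34.3% of all genes. In the joint test over the 4 groups Klra2, Klra17, Klra7 and Klra5 passed (edgeR adjusted p = 0.00510, 0.00680, 0.00804 and 0.0134), where 48.8% of all genes did; without Klra17 that is 3 of 7 members. Late against early and repeat against late called 0 of 8 members and 0% of all genes by edgeR. At an unadjusted p under 0.05, edgeR found 1 member in each, Klra17 and Klra7, but all genes were not counted at that level. The p-value of Klra17 gives no support to a rise, since the filter admitted this gene through the late group. DESeq2 with its own size factors called 1 member late against early, Klra7, which was lower. It called 4.8% of all genes lower and 3.02% higher there. The 3 comparisons against saline share the same 3 saline tumors.

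Counted by overlap alone, 4 of the 8 tested members lay higher in all early than in all saline tumors (Klra2, Klra7, Klra4 and Klra5), as did 49.9% of all genes. In the late group 3 did (Klra2, Klra5 and Klra17, the last admitted to testing through that group), against 42.5%, and after repeat dosing 5 did (Klra2, Klra7, Klra4, Klra5 and Klra17), against 64.1%. No member lay lower in all treated than in all saline tumors, where 3.7%, 2.06% and 3.84% of all genes did. Between treated groups, Klra17, admitted to testing through the late group, lay higher in all late than in all early tumors, as did 6.72% of genes. Klra7 lay lower in all late than in all early tumors, as did 4.12%. Klra5 and Klra17 lay higher in all repeat than in all late tumors, as did 10.7%. Each of these 2 passed background in only 1 of 3 repeat-dose tumors. No member lay lower in all repeat than in all late tumors, where 1.65% of genes did.

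Genes of class I presentation and of receptor signalling rose alongside. Of the classical class I ligands and their assembly genes 5 of 6 listed were on the panel, and all 5 rose in each treated group, with medians 2.22, 1.86 and 2.32 in log2 above the median gene. H2-K1, the class I molecule bound by Ly49C, averaged 2671 in saline, 18265 early, 18577 late and 34984 after repeat dosing (edgeR adjusted p = 0.00437, 0.00690 and 0.000770). H2-D1, the other classical class I heavy chain of C57BL/6 mice, rose by 2.36, 2.52 and 3.30 in log2 (edgeR adjusted p = 0.00664, 0.00700 and 0.000770). Of 10 listed signalling genes 7 were measured, among them the adaptors Fcer1g and Cd247 and the kinases Syk and Zap70. Tyrobp, which encodes DAP12, was not on the panel. Of the 7 measured, 4 rose early and all rose in the late and repeat groups.

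Markers of cells that can carry Ly49 receptors, or that share the tissue, are given against the share of all genes called higher, 30.5% early, 39.1% late and 59.4% after repeat dosing. Of 15 NK-cell markers 10 rose early, 10 late and 12 after repeat dosing, above that share each time. Their summed level ran from 826 to 1697 in saline, 8474 to 12810 early, 2436 to 6311 late and 7013 to 16718 after repeat dosing. Gzma and Il2rb held on average 27.6%, 72.7%, 49.8% and 67.9% of it. T cells also express these and others of the list, such as Prf1 and Klrg1, so neither sum is specific to NK cells. The 13 others summed to 563 to 1085, 2674 to 3128, 1330 to 3079 and 2834 to 4419 in the same order of groups. Ncr1, the NK receptor NKp46, was 69.5, 41.2 and 37.6 in saline, 190.5, 223.0 and 277.3 early, 159.1, 80.8 and 134.3 late, and 204.1, 236.3 and 101.9 after repeat dosing. It was lower in every late than in every early tumor, as were Klra7 and, in all, 4.12% of the genes tested. By group mean, Klrc1, Cd160, Klrb1, Klrd1 and Itga2 were higher late than early, and the other NK-cell markers were lower. Late against early, 0 of the 15 passed edgeR's test. Klrb1c, which encodes NK1.1, passed in no comparison against saline. Of 16 macrophage and monocyte markers 4 rose early, under the share of all genes, and 11 late and 14 after repeat dosing, above it, and their sum ran from 3633 to 15711 in saline, 20725 to 38231 early, 26386 to 69407 late and 34306 to 111376 after repeat dosing. Of 9 dendritic-cell markers 4, 4 and 6 rose, of 11 T-cell markers 0, 5 and 6, and of 5 tested neutrophil markers 1, 3 and 3, counts near or under the share of all genes in at least 1 group of each list. The T-cell list includes Cd3eap, which is not specific to T cells and averaged 106, 116, 119 and 117 from saline to repeat dose. The part of the cell types above in the values of Klra2 and Klra7 was not tested.

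Nearness of profile was measured over the 12 tumors as the root mean square distance between centred log2(scaled count + 1) values, as a description with no test. The nearest of the tested panel genes to Klra2 were Itgal, the alpha chain of the leukocyte integrin LFA-1, at 0.24, Slc11a1, a metal transporter of phagocytes, at 0.26, and Icam1, an LFA-1 ligand, at 0.27. The spread of Klra2 itself was 1.32 on that scale. The nearest to Klra7 were Cd47, a surface signal that restrains phagocytes, at 0.26, the interferon-induced Oasl1 at 0.29 and the inhibitory lymphocyte receptor Klrg1 at 0.30, against an own spread of 0.97. Cd47, Oasl1 and Klrg1 also had their lowest treated value in late tumor B. Klra4, with an own spread of 0.53, was nearest to Cx3cl1 at 0.20, Tigit at 0.22 and Smpd3 at 0.25. These distances share each tumor's scaling factor.

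For Klra1, Klra3 and Klra6 the same measure was taken after their values were seen. Klra1 was nearest to Il19 at 0.20, Il17f at 0.22 and Ccr3 at 0.24, Klra3 to Il25 at 0.18, Lamp3 at 0.23 and Pmch at 0.24, and Klra6 to H2-Ob at 0.22, Trem1 and Pla2g1b at 0.26. The own spreads were 0.74, 0.86 and 0.64. Il25, an interleukin of epithelial and tuft cells, was 57.4, 32.6 and 70.6 in saline tumors A, B and C, 107.6, 14.6 and 37.0 early, 25.4, 48.9 and 96.3 late, and 80.2, 18.5 and 90.2 after repeat dosing. Its lowest tumor in each group was the one that was lowest for Klra1, Klra3 and Klra6.

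**Figure D4:**
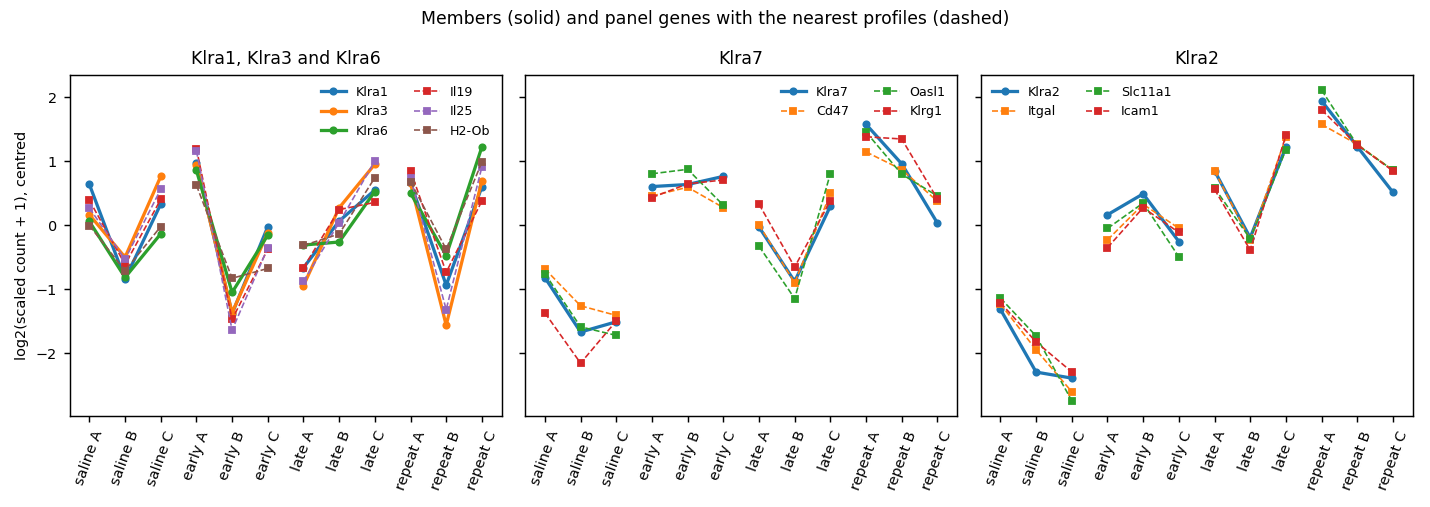
Log2(scaled count + 1) in each of 12 tumors, centred on each gene's own mean, for members (solid) and near panel genes (dashed); lines link the 3 tumors of a group for one gene and mark no order. Klra1, Klra3 and Klra6 (left) dip in saline B, early B, late A and repeat B together with Il19 and Il25. Klra2 (right) separates saline from treated tumors. Klra7 (centre) does so except in late B, which falls within the saline range.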

How the data were processed

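The members and gene lists were chosen with earlier results of these data known. Per the labels' protocols, RNA was extracted from FFPE tissue scrolls and hybridized to the nCounter panel, and the submitters analysed it in nSolver. The deposited raw counts (1 table per tumor, 750 genes, 20 housekeeping, 6 positive and 8 negative probes) were the main input; the authors' deposited normalized signal values, made in nSolver per the labels with settings not given in the sources used here, were an alternative, tested as log2(value + 1).

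For scaling, each raw count was divided by the housekeeping geometric mean of its tumor, itself expressed relative to the geometric mean over all 12 tumors. In R 4.3.3, edgeR 4.0.16 (glmQLFit, robust; glmQLFTest) was fitted to raw counts of all 12 tumors with library sizes proportional to the housekeeping mean. The 729 genes above the mean + 2 SD of the negative probes in at least 3 tumors were tested and p-values adjusted by Benjamini-Hochberg, at 0.05. SE was log2 change over the square root of F. The script was checked on simulated counts. The labels give separate mice, so p-values cover the spread between mice. The series text gives a group of 4 in one place; 3 repeat-dose tumors were analysed. All 10 members were named by rule; other genes came from lists or the nearest-profile rule, apart from S100b, Ptprc and the genes near Klra1, Klra3 and Klra6, which were added after values were seen. Promoter identity used Biopython. Alternatives were TMM, panel-total, positive-control and steadier-housekeeping scaling, DESeq2 1.42.0, limma 3.58.1, other filters, background subtraction, only the groups compared, a replicate block and leaving out each tumor.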

Additional observations from a re-analysis of the deposited data

How the results depend on the processing

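The number of members past the threshold depended on scaling and background, as did the share of all genes. Klra2 after repeat dosing passed in every alternative run. The joint test called 4 members, but 2 with TMM, panel-total scaling, DESeq2 with its own size factors, a filter on all tumors, negative counts subtracted or (added after seeing the data) panel-total scaling with negative counts subtracted, and 0 with positive controls. With DESeq2's own factors, Klra5 and Klra17 had no adjusted p-value in the joint test, so they were not judged there. The main joint test called 48.8% of all genes, a share counted in no other fit. Early against saline called 3 (30.5% of all genes called higher). It called 1 with positive controls (11.7%) and 2 with TMM (19.6%), panel-total (15.5%), DESeq2's own factors (23.5%) or the all-tumor filter (38.8%). Negative subtraction (25%), a fit of those groups alone (34%) and the added setting (15%) also called 2. Late against saline called 4 (39.1% of all genes). It called 2 with the all-tumor filter (50.7%). TMM (18.5%), panel-total (15.1%), DESeq2's own factors (23%), negative subtraction (32.1%) and the added setting (14%) called 1. Positive controls (5.21%) and a fit of those groups alone (0%) called 0. Repeat against saline called 5 (59.4% of all genes). The all-tumor filter called all 3 members it left to test (71.4%). Positive controls called 3, of which 1 was higher and 2 lower (15.8% and 21.5% of all genes). TMM (32.1%), DESeq2's own factors (33.5%) and negative subtraction (50.3%) called 2. Panel-total (21.8%) and the added setting (20.7%) called 1. Late against early called 0, and 1 with DESeq2's own factors (3.02% of all genes higher and 4.8% lower). The all-tumor filter leaves fewer members to test; for the other settings the cause was not tested.

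Leaving out 1 tumor gave 3 to 5 members in the joint test, 1 to 3 early, 1 to 4 late, 4 to 5 after repeat dosing and 0 to 0 between treated groups. Repeat-dose fits called 366 to 453 of 729 genes higher (433 with all tumors). The lowest early count came without saline B (87 of 729 genes called higher, 222 with all tumors). The lowest late counts came without saline B or C (86 and 108, against 285), with 2 without late A or C (220 and 107).

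Against saline, 15 of 24 member changes turned sign in at least 1 alternative or with 1 tumor left out, none of them among the 6 of Klra2 and Klra7; over all 5 comparisons 27 of 40 did. Of these turns, 1 passed the threshold, Klra1 after repeat dosing with positive controls. Among changes called in the main setting or in the alternative, repeat against saline turned for Klra1 to -1.48 with positive controls; Klra4 to -0.086 with TMM, -0.46 with the panel total, -0.46 with positive controls, -0.12 with DESeq2's own factors and -0.81 with the added setting; Klra5 to -0.15 and Klra17 to -0.27 with the added setting. Subtracting negatives moved the log2 ratio of Klra2 to the other 9 to 2.73, 4.58, 5.15 and 5.59 from saline to repeat dose. The letters A, B and C did not pair tumors: deviations of same-letter tumors correlated at -0.65 to 0.60, above 0.1 in 8 of 18 pairs. With the letter as replicate block, 3, 4 and 5 members passed against saline (30.3%, 37.6% and 58.7% of all genes higher). Jointly 4 passed and between treated groups 0, each as without the block.

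Background limits what can be read: 82 of 120 member and tumor pairs passed at 2 SD, 72 at 3 SD and 85 above the highest negative probe. A group of 3 tumors limits precision throughout.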
